A study of Saccharomyces cerevisiae with 18 samples.

Results

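The 81 genes described here code for the proteins of the large subunit of the cytosolic ribosome of Saccharomyces cerevisiae. They are the ORFs whose standard name in the R64 annotation is RPL followed by a digit, together with RPP0, RPP1A, RPP1B, RPP2A and RPP2B. The choice went by name, from 6650 named ORFs, and was made with earlier results of these data known. All 81 had a value in each of the 6 columns of the table, so none was lost to a missing value. They form 35 pairs of A and B paralogs and 11 genes with a single copy, and 53 of the 81 have an intron within their coding part.

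A ribosome is built from a small and a large subunit, and the large one joins amino acids and lets the growing chain out through a tunnel. Most of its proteins bind ribosomal RNA in the nucleolus, while the acidic P proteins form a flexible stalk that brings in elongation factors. Yeast transcribes these genes together, at a high rate during fast growth, through the DNA-binding protein Rap1 and its partners Fhl1, Ifh1 and Hmo1. The histone deacetylase Rpd3 is known to take part in their repression when TOR signalling is blocked.

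Messenger RNA was measured in the haploid laboratory strain BY4741 growing in log phase on YP medium with xylulose, a pentose sugar. In every group 1 of 2 genes was edited, RXT3 or PHO23, whose products both belong to the large form of the Rpd3 histone deacetylase complex. By the sample titles the gene was deleted or replaced by the natural allele of T73 or of CLIB215, which gives 6 groups with 3 samples in each of the 18 listed. The table holds a single pooled column per group, so no replicate error exists for any value and no test between groups was possible. Unmodified BY4741 is not analysed here, and how many clones of each edited strain were grown is not given in the sources used here.

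Values are centred log units. They are taken as log2, and no source used here names the base. A value says only how one column stands against the others for the same gene, and levels of different genes cannot be compared. Since the values are relative and the depth is unknown, a different share of these transcripts in the RNA and a different amount per cell cannot be told apart. A difference of at least 0.5 unit between columns is used below as a fixed mark of size. Shares over all genes refer to the 4956 ORFs with a value in all 6 columns.

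The edited genes gave an incomplete check of the columns. PHO23 lacked a value where its deletion is labelled, while it stood at 0.35 in the column of its T73 allele and at −0.88 in that of its CLIB215 allele. RXT3 stood at −0.05 where its own deletion is labelled, at 0.11 in the column of its T73 allele and at 0.23 in that of its CLIB215 allele, so the deletion was not visible there. The columns are named by the sample titles, and for 3 groups (T73RXT3, CLIB215RXT3 and delPHO23) a different strain is written in the samples' genotype field. Where the titles have CLIB215, the design text of the series has PHO23 as the source of the allele. In the column that the genotype field makes the PHO23 deletion, titled T73RXT3, PHO23 stood at −0.07, and with the RXT3 allele of CLIB215 at −0.61. RXT3 was lowest, at −0.36, with the PHO23 allele of CLIB215. By the genotype field the column titled delPHO23 is the RXT3 allele of CLIB215, and that titled CLIB215RXT3 is the RXT3 allele of T73. Every direction given below, and every contrast between the loci, rests on the titles.

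The large-subunit genes stood high in 2 columns and low in the other four. Their median was 0.19 in the PHO23 deletion and 0.24 with the PHO23 allele of CLIB215, and 74 of 81 members lay above 0 in each. Of all complete ORFs 48.7% and 51.8% lay below 0 there. With the PHO23 allele of T73 the median was −0.13, and 74 members lay below 0, beside 43.2% of all complete ORFs. In the RXT3 columns the medians were −0.11 where RXT3 is labelled deleted, −0.13 for T73 and −0.07 for CLIB215. There 68, 74 and 66 members lay below 0, beside 43.9%, 44.6% and 46.6% of all complete ORFs. The median of all complete ORFs stayed between −0.02 and 0.05 in the 6 columns.

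**Figure D1:**
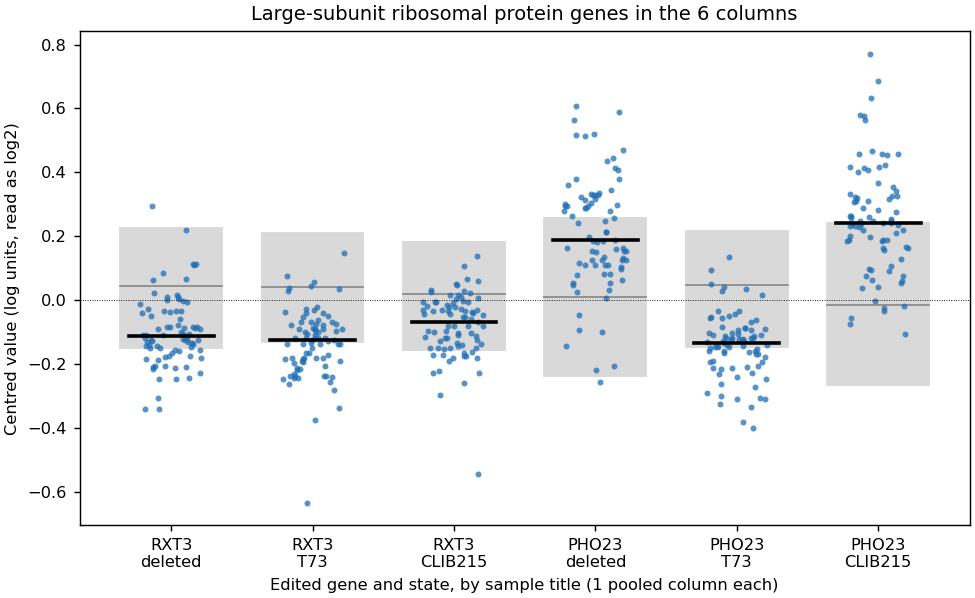
Value of each of the 81 large-subunit ribosomal protein genes (points) in each column, in centred log units. The black bar is the members' median. The grey box spans the quartiles of the 4956 complete ORFs, with their median as a grey line. The members' medians are 0.19 in the PHO23 deletion and 0.24 with the PHO23 allele of CLIB215, and between −0.13 and −0.07 in the other columns.

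Member by member the same order appeared. The highest column was that of the PHO23 allele of CLIB215 for 44 members and the PHO23 deletion for 33. For 67 of 81 members (82.7%) these columns were the 2 highest, against 16.3% of the 4956 complete ORFs. The 4 members with another highest column were RPL41B and RPP1A, highest with the RXT3 allele of CLIB215, RPL37B, highest with the RXT3 allele of T73, and RPL29, highest where RXT3 is labelled deleted. The distance between a member's highest and lowest column had a median of 0.50 unit, against 0.76 over all complete ORFs. It was widest for RPL15B at 1.32 units, and narrowest for the stalk protein gene RPP1A at 0.18.

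**Figure D2:**
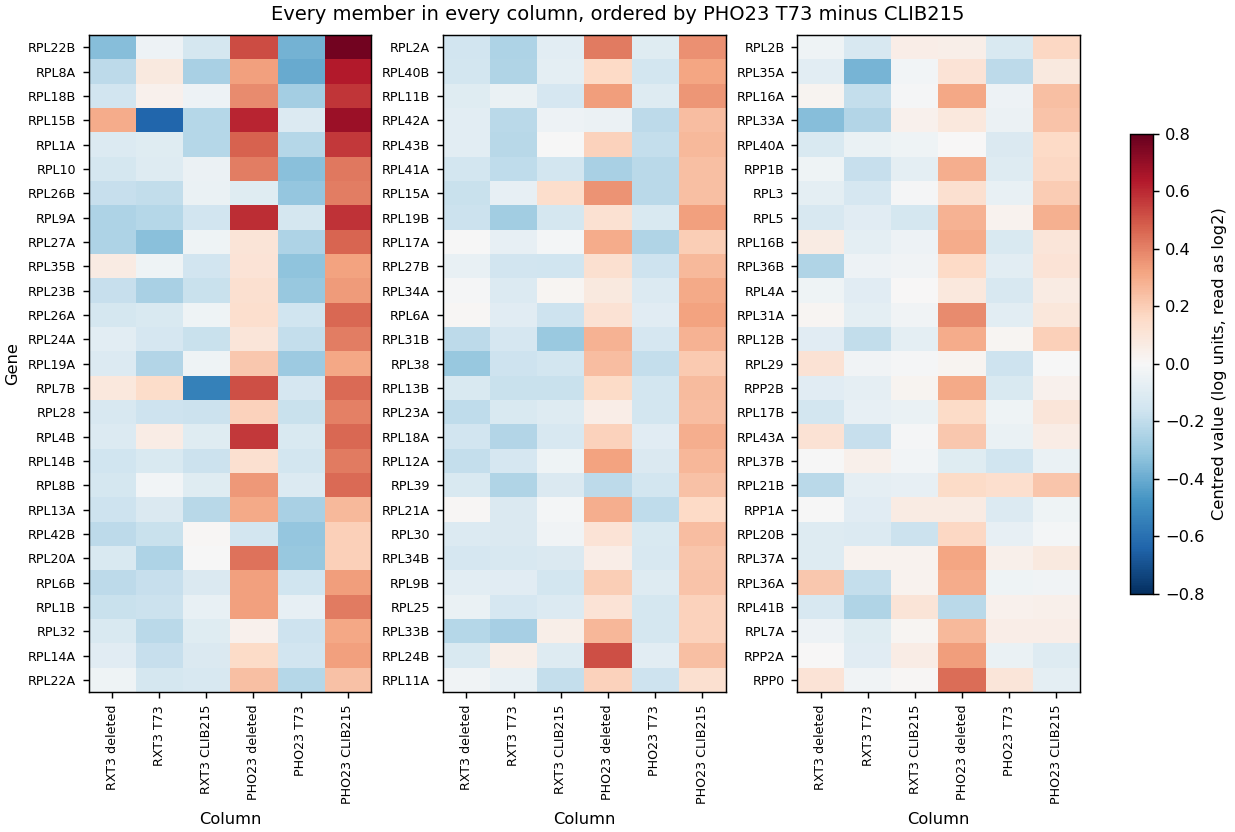
Values of the 81 large-subunit ribosomal protein genes (rows) in the 6 columns, coloured by centred log units. The columns of the PHO23 deletion and of the PHO23 allele of CLIB215 are above 0 for 74 members each. Of all complete ORFs 48.7% and 51.8% are below 0 there.

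The comparison between the natural PHO23 alleles asks whether exchanging one for the other goes with a different transcript share of these genes. With the T73 allele 79 of 81 members were lower than with the CLIB215 allele, whereas 45.4% of all complete ORFs were lower. The median difference was −0.40, beside 0.06 over all complete ORFs. By the mark of 0.5 unit 20 members were lower and none higher, while 15.6% of all ORFs were lower by that mark and 34.6% passed it in either direction. The share of members lower by that mark, 24.7%, was above the like share of all ORFs, and it moved with the scaling: with each column shifted to median 0 the count was 36 of 81, against 18.6% of all ORFs. The members' spread was narrower (SD over genes 0.24, against 0.59 over all ORFs).

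RPL22B and RPL8A differed most between the natural PHO23 alleles, and were the 2 members past 1 unit, which 4.36% of all ORFs were in the lower direction. RPL22B (chromosome VI, 64243 to 64932, minus strand, 1 intron) codes for a protein on the rim of the exit tunnel, and Rpl22 itself is known to restrain splicing of this transcript. Its values were −0.38 with the PHO23 allele of T73, 0.77 with that of CLIB215 and 0.52 in the PHO23 deletion. They were −0.34 where RXT3 is labelled deleted, −0.04 with the RXT3 allele of T73 and −0.14 with that of CLIB215. It was thus high in 2 columns and below 0 in the other four, and the T73 minus CLIB215 difference at PHO23 was −1.15.

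RPL8A (chromosome VIII, 35255 to 36025, minus strand, no intron) codes for a protein needed for early steps of large-subunit rRNA processing. It had −0.40 with the PHO23 allele of T73, 0.63 with that of CLIB215 and 0.33 in the PHO23 deletion, and the difference between the natural alleles was −1.03. In the RXT3 columns its values were −0.21 (labelled deleted), 0.08 (T73) and −0.26 (CLIB215). After RPL22B and RPL8A came RPL18B at −0.85, RPL15B at −0.79 and RPL1A at −0.79. RPL1A codes for the protein of the mobile stalk beside the exit site of transfer RNA.

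Among the members with the smallest or an opposite difference between the natural PHO23 alleles were 2 stalk genes. RPP0, whose protein anchors the acidic stalk to the ribosomal RNA, was 0.17 higher with the T73 allele, and RPP2A, one of the acidic P proteins, was 0.05 higher. These were the only 2 members that were higher with the T73 allele. RPL36A differed by −0.01, and RPL7A and RPL41B by less than that.

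The comparison of the PHO23 deletion with the T73 allele asks how the loss of the gene stands beside that allele, and it uses the same T73 column as the comparison of the natural alleles. In the deletion 78 of 81 members were higher, against 46.9% of all ORFs, and the median difference was 0.32, beside −0.04 over all ORFs. By the mark of 0.5 unit 16 members were higher and none lower. Over all ORFs 15.7% were higher by that mark and 33.3% passed it in either direction. The SD of the difference over members was 0.20, against 0.58 over all ORFs.

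RPL22B again differed most, by 0.90. RPL10, whose protein joins the subunit last and lies near the catalytic centre, had 0.41 in the deletion and −0.34 with the T73 allele, a difference of 0.74. RPL20A also differed by 0.74, and RPL9A and RPL8A by 0.73 each. RPL9A (chromosome VII, 227754 to 228329, minus strand) had 0.59 in the PHO23 deletion, −0.14 for the T73 allele and 0.58 with that of CLIB215, and its 3 RXT3 columns lay between −0.25 and −0.15.

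The 3 members that were lower in the PHO23 deletion than with the T73 allele have the shortest coding sequences of all members. RPL41B was lower by 0.25 unit (difference −0.25), RPL39 had a difference of −0.06 and RPL41A of −0.04. Next came RPL21B at 0.02 and RPL37B at 0.06, which were nearly level. The signs of RPL39 and RPL41A depended on the scaling. With columns shifted to median 0 and scaled to equal SD they had 0.04 and 0.07, and RPL41B stayed lower at −0.17. RPL41A and RPL41B code for a peptide of the bridge to the small subunit, and RPL39 for a protein that lines the exit tunnel. Their coding sequences have 78, 78 and 156 bases. The coding sequences of the RPL41 pair are shown whole because they differ at 1 base, marked by a capital, so that reads within them can hardly be assigned to one copy (both on chromosome IV, minus strand; reference genome R64, 5′ to 3′).
RPL41A: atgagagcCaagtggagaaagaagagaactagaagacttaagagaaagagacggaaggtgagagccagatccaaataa
RPL41B: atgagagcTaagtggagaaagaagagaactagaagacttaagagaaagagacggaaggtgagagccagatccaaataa
RPL41A (130407 to 130484) had −0.26 in the PHO23 deletion, −0.21 for the T73 allele and 0.24 with that of CLIB215. RPL41B (221724 to 221801) had −0.22, 0.04 and 0.04 in the same order. RPL39 (chromosome X, 75933 to 76474, plus strand, 1 intron) had −0.21, −0.15 and 0.23. RPL41A and RPL39 were thus low in the deletion and high with the CLIB215 allele, unlike most members, which were high in both. The pattern was not limited to the shortest members. RPL26B, RPL42A and RPL42B, with longer coding sequences, had −0.10, −0.05 and −0.14 in the deletion. With the CLIB215 allele they had 0.41, 0.25 and 0.19.

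The PHO23 deletion and the CLIB215 allele had nearly the same median (difference −0.04, beside 0.02 over all ORFs). Of the 81 members 46 were lower in the deletion and 35 higher, while 48.6% of all ORFs were lower. One member passed the mark of 0.5 unit in each direction, which makes 2.47% of the members against 23.6% of all ORFs. RPL26B, at the rim of the exit tunnel, had −0.10 in the deletion and 0.41 with the CLIB215 allele, a difference of −0.51. After it came RPL41A at −0.50, RPL39 at −0.44, RPL27A at −0.36 and RPL42B at −0.33.

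At the other end of the comparison between the PHO23 deletion and the CLIB215 allele stood the stalk. RPP0 (chromosome XII, 805887 to 806825, plus strand) had 0.44 in the deletion, 0.09 for the T73 allele and −0.08 with that of CLIB215, and 0.11, −0.03 and 0.01 in the RXT3 columns (labelled deleted, then T73, then CLIB215). RPP2A had 0.33, −0.05 and −0.10 in the PHO23 columns in that order, and between −0.09 and 0.06 in the RXT3 columns. The PHO23 deletion alone stood out for both, with differences to the CLIB215 allele of 0.52 and 0.44. RPL36A differed by 0.32, RPL31A by 0.29 and RPL24B by 0.28.

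**Figure D3:**
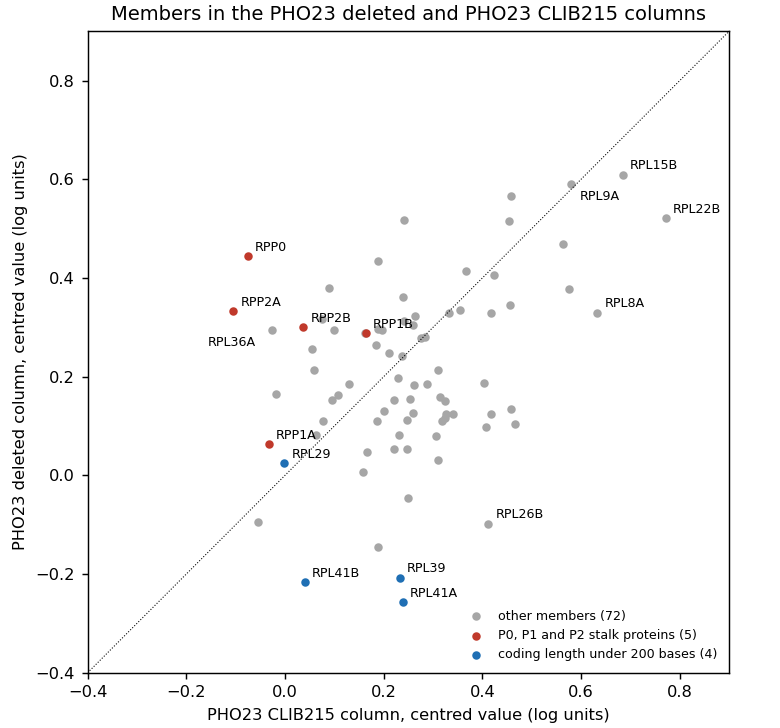
Value of each of the 81 members in the PHO23 deletion against its value with the PHO23 allele of CLIB215, in centred log units, with the line of equal values, P protein genes in red and members with under 200 coding bases in blue. RPP0 and RPP2A lie on the deletion side (0.44 and 0.33 against −0.08 and −0.10), and RPL41A and RPL39 on the CLIB215 side (0.24 and 0.23 against −0.26 and −0.21).

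By role, the 7 stalk genes (RPP0, RPP1A, RPP1B, RPP2A, RPP2B and the RPL12 pair, whose protein binds at the stalk base) were all higher in the PHO23 deletion than with the CLIB215 allele, by 0.06 to 0.52 with a median of 0.12. RPP2B differed by 0.26, RPP1B by 0.12 and RPP1A by 0.10, and RPL12A and RPL12B by 0.06 and 0.11. In the same comparison 35 of all 81 members were higher in the deletion, and 48.6% of all ORFs were lower. The stalk was also the group with the smallest median difference between the natural PHO23 alleles among those with 5 or more members, −0.16, beside −0.40 over all 81. The 17 genes of the exit tunnel and its rim had medians of 0.41 (deletion minus T73) and −0.44 (T73 minus CLIB215).

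The genes of the particle formed with the 5S ribosomal RNA (RPL5, RPL11A and RPL11B) also shared the direction of the members as a whole. Their median was 0.35 for the deletion minus T73 and −0.30 for T73 minus CLIB215. The 4 genes of the neighbourhood of the catalytic centre had 0.35 and −0.38, the former spread over 0.17 to 0.74. The RPL40 pair, which codes for a ribosomal protein fused to ubiquitin, had 0.12 (RPL40A) and 0.30 (RPL40B) for the deletion minus T73. The 4 genes listed here for bridges to the small subunit, the RPL24 and RPL41 pairs, were the most divided in sign. For the deletion minus T73 2 were above 0 and 2 below, from −0.25 for RPL41B to 0.60 for RPL24B. The list does not hold every protein that forms a bridge.

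Coding length went with part of this spread. The 4 members with under 200 coding bases, a limit set after the values were seen (RPL29, RPL39, RPL41A and RPL41B), had a median of −0.05 for the deletion minus T73, and the other 77 had 0.35 and were all above 0. Over the 81 members the correlation of coding length with the deletion minus T73 difference was 0.36 (Pearson) and 0.39 (Spearman), a description across genes that share the same libraries. The part of length in the differences was not tested. Members with an intron had a median of 0.30 for the deletion minus T73 and those without 0.39, and the medians for T73 minus CLIB215 were −0.41 and −0.39.

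The 11 single-copy genes, whose reads cannot be confused with those of a paralog, showed the pattern of the whole group. Their median was 0.25 for the PHO23 deletion minus T73 (10 of 11 above 0) and −0.37 for T73 minus CLIB215 (10 of 11 below 0). RPL3, near the catalytic centre, had 0.13 in the deletion, −0.06 for the T73 allele and 0.20 with that of CLIB215. RPL28, the site where cycloheximide resistance arises, had 0.19, −0.18 and 0.40, and RPL30, whose protein represses splicing of its own transcript, had 0.11, −0.12 and 0.25. In RPL3, RPL28 and RPL30 the deletion and the CLIB215 allele were above 0 and the T73 allele below it. RPL38 (0.25, −0.19 and 0.21), RPL5 (0.28, 0.03 and 0.28), RPL25 (0.11, −0.14 and 0.19) and RPL32 (0.03, −0.17 and 0.31) had the same order of T73 below both. RPL29 was nearly level in the deletion and with the CLIB215 allele (0.02 and 0.00).

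By the titles the members differed far less at RXT3 than at PHO23, and naming by the genotype field changed this. That naming moved the median of the PHO23 deletion minus T73 to 0.0043. It made the column titled delPHO23 the RXT3 allele of CLIB215, and the RXT3 deletion minus that allele then had a median of −0.30. The values that follow go by the titles. For the column labelled RXT3 deleted minus the T73 allele the median difference was 0.06, with 49 members above 0 and 32 below, beside 51.1% of all ORFs above 0. One member passed 0.5 unit, against 21.6% of all ORFs. That member was RPL15B (chromosome XIII, 509734 to 510348, minus strand), which codes for an early-assembling protein deep in the subunit. Its RXT3 columns were 0.30 (labelled deleted), −0.63 (T73) and −0.23 (CLIB215), so the first comparison gave 0.93. RPL36A followed at 0.41, RPL43A at 0.30, RPL35A at 0.29 and RPL16A at 0.21. The lowest were RPL22B at −0.30, RPL8A at −0.28, RPL36B at −0.20, RPL18B at −0.19 and RPL4B at −0.17.

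For that column minus the CLIB215 allele of RXT3 the median was −0.03, and 48 members were below 0, beside 47.0% of all ORFs. RPL7B at 0.63 and RPL15B at 0.52 passed the mark, and 17.9% of all ORFs did. RPL35B (0.22), RPL36A (0.19) and RPL6A (0.18) came next. The lowest values were −0.37 for RPL33A, −0.32 for RPL15A, −0.28 for RPL33B, −0.24 for RPL41B and −0.22 for RPL42B.

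Between the natural RXT3 alleles (T73 minus CLIB215) the median was −0.06, with 58 members below 0, beside 48.4% of all ORFs. The 1 member past the mark, against 19.5% of all ORFs, was RPL7B (chromosome XVI, 173152 to 174702, plus strand, 2 introns), which codes for a protein bound early to the rRNA precursor. RPL7B had 0.08 (labelled deleted), 0.15 (T73) and −0.54 (CLIB215) in the RXT3 columns, a difference of 0.69 between the natural alleles. In the PHO23 columns it had 0.52 (deleted), −0.13 (T73) and 0.45 (CLIB215). Its paralog RPL7A lay between −0.10 and 0.26 in all 6 columns. The other ends of this comparison were RPL8A (0.33), RPL31B (0.16), RPL4B and RPL24B (0.15 each), and RPL15B (−0.41), RPL35A (−0.35), RPL41B (−0.34), RPL33B (−0.31) and RPL27A (−0.30).

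The 3 remaining comparisons set the same kind of edit at the 2 loci side by side. The RXT3 column labelled deleted minus the PHO23 deletion gave a median of −0.30, with 76 members below 0, beside 47.6% of all ORFs. The mark was passed by 15 members (18.5%), all lower. Over all ORFs 820 of 4956 were lower by it, a share near that of the members, and 35.8% passed it in either direction. RPL22B (−0.86), RPL9A (−0.84), RPL4B (−0.68), RPL24B (−0.64) and RPL1A (−0.58) were lowest, and RPL41A (0.11), RPL29, RPL37B, RPL39 and RPL41B (0.09 each) were highest. For the CLIB215 alleles (RXT3 minus PHO23) the median was −0.34, with 75 members below 0, beside 47.5% of all ORFs. Again 15 members (18.5%) passed the mark, all lower. Over all ORFs 806 of 4956 were lower by it, again a share near that of the members, and 35.0% passed it in either direction. With each column shifted to median 0 the count of members was 24, against 17.9% of all ORFs that were then lower by the mark. RPL7B (−0.998), RPL22B and RPL15B (−0.91 each), RPL8A (−0.89) and RPL1A (−0.79) were lowest.

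The stalk genes RPP2A (0.16), RPP1A (0.10) and RPP0 (0.08) were the highest in the comparison of the CLIB215 alleles, before RPL41B (0.07) and RPL36A (0.06). For the T73 alleles the median was 0.00, with 45 members above 0, beside 49.2% of all ORFs, and 1 past the mark, beside 20.3% of all ORFs. That member was RPL15B at −0.52, followed by RPL41B (−0.27), RPL12B and RPL21B (−0.21 each) and RPL33A (−0.19). The highest were RPL8A (0.48), RPL22B (0.34), RPL18B (0.31), RPL35B (0.29) and RPL7B (0.28).

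**Figure D4:**
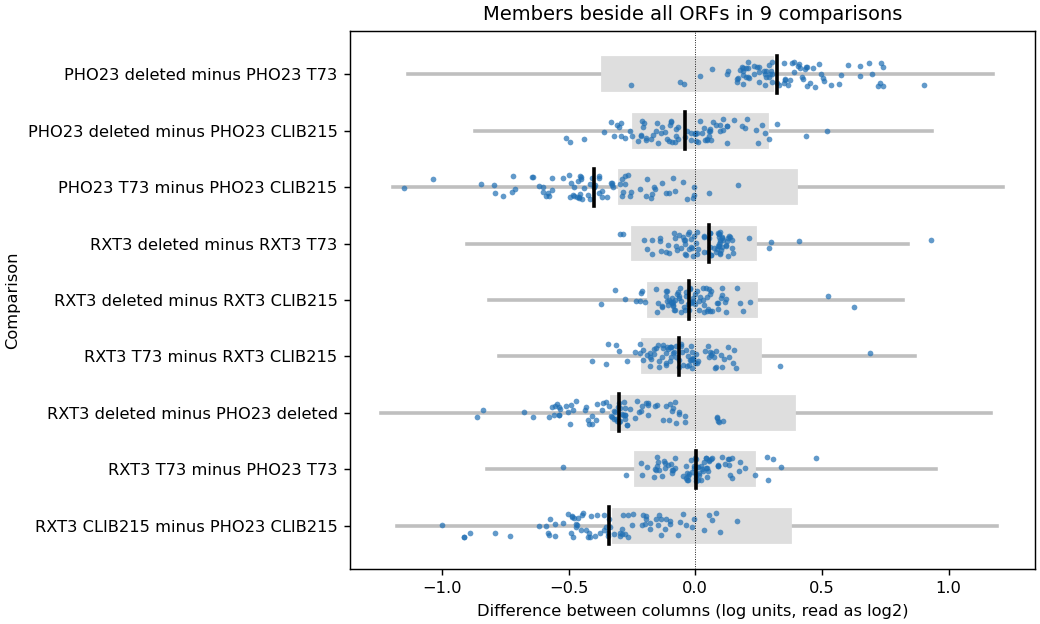
Differences between columns in log units for the 81 members (points) in the 9 comparisons, with the members' median as a black bar. The grey box spans the quartiles of all complete ORFs, and the grey line their wider spread. The members' median is at 0.32, −0.40, −0.30 and −0.34 in the comparisons that set the PHO23 deletion or the PHO23 allele of CLIB215 against one of the other four columns, and between −0.06 and 0.06 in the other five.

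Paralogs were compared through the difference A minus B within each column. The distance between the highest and lowest of these 6 differences had a median of 0.40 unit over the 35 pairs (0.12 to 1.04), and 0.43 over the 3205 other pairs that the members can form. Paralogs thus kept together across columns about as closely as any 2 members did, although the pairs overlap and no test was made. For the PHO23 deletion minus T73 both paralogs had the same sign in 35 of 35 pairs, and for T73 minus CLIB215 at PHO23 in 34 of 35, where 78 and 79 of the 81 members shared a sign. Between the natural RXT3 alleles this held for 22 of 35, and for the RXT3 column labelled deleted minus T73 for 12 of 35.

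**Figure D5:**
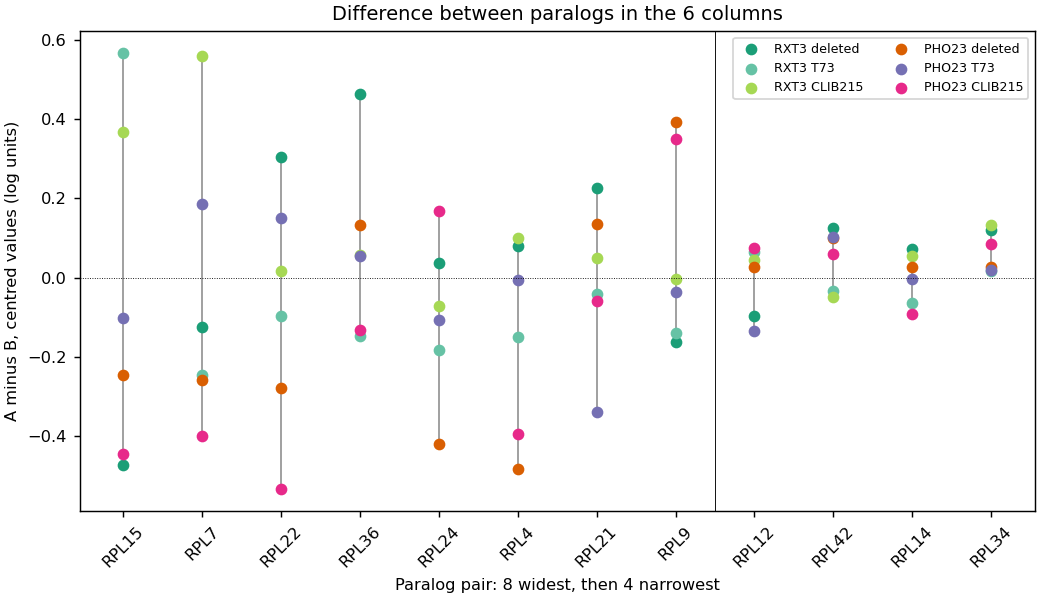
Difference A minus B in each of the 6 columns, in log units, for the pairs with the widest and narrowest distance between columns. The RPL15 pair runs over 1.04 units, from −0.47 to 0.57, and the RPL34 pair over 0.12 unit.

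The RPL15 pair was widest. RPL15A minus RPL15B was −0.47 where RXT3 is labelled deleted, 0.57 with the RXT3 allele of T73 and 0.37 with that of CLIB215, and −0.25, −0.10 and −0.45 in the PHO23 columns. Most of this came from RPL15B, since RPL15A itself ran only from −0.21 to 0.36. The RPL7 pair spanned 0.96, with 0.56 for the RXT3 allele of CLIB215 and −0.40 for the PHO23 allele of CLIB215. The RPL22 pair spanned 0.84, with 0.30 where RXT3 is labelled deleted and −0.53 with the PHO23 allele of CLIB215, and RPL22A itself stayed between −0.23 and 0.24.

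Behind them came RPL36 (0.61), RPL24 (0.59), RPL4 (0.58), RPL21 (0.57) and RPL9 (0.56). RPL4B, for a protein that reaches into the exit tunnel, had 0.57 in the PHO23 deletion and its paralog RPL4A 0.08. RPL9A and RPL9B, for a protein near the binding site of the elongation factors, had 0.59 and 0.20 there. The narrowest pairs were RPL34 (0.12), RPL14 (0.16), RPL42 (0.17) and RPL12 (0.21).

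How far reads of the copies can be told apart depends on where the counted reads lie. By the protocol RNA already fragmented was enriched for poly(A), which favours pieces from the 3′ end. The position of the counted reads itself is not given in the sources used here. The coding sequences of a pair were 69.2% (RPP1) to 99.4% (RPL1) identical, with a median of 93.2%. The first 150 bases after the stop codon were 41.2% to 53.5% identical, with a median of 49.0%. Pairs with at least 95% coding identity had a median distance of 0.46 over 11 pairs, and the other 24 pairs had 0.38. The last 90 coding bases are shown for 3 pairs (reference genome R64, 5′ to 3′), with the bases that differ in capitals, as cases with many, few and no differing bases. They differ at 11 positions in RPL15, at 5 in RPL7 and at none in RPL1.
RPL15A: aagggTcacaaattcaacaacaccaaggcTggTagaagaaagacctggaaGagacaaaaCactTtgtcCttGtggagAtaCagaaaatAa
RPL15B: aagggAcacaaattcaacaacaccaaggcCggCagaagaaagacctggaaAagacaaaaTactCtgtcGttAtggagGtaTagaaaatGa
RPL7A: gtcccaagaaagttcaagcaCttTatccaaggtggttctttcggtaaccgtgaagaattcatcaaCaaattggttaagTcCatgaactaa
RPL7B: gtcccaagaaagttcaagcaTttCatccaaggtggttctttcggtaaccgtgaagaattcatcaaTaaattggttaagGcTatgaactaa
RPL1A: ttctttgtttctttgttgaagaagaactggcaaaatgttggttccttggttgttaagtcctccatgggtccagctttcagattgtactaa
RPL1B: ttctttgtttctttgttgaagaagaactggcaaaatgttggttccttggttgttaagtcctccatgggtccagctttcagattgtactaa
The values of RPL1A and RPL1B, and of other pairs with such an identity, are uncertain as values of one copy. RPL1A had 0.47, −0.23 and 0.56 in the PHO23 columns (deleted, T73, CLIB215) and RPL1B had 0.33, −0.06 and 0.42, so both copies had the same order.

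A window of 500 bases that ends 100 bases before the start codon was searched for motifs on both strands. The core of the Rap1 motif, ACCCNNACA, was present in 39 of 81 members (48.1%) and in 6.01% of the 6005 windows of all ORFs. A run of 8 T was present in 59.3% of the members and 40.9% of all windows, the TATA box in 33.3% against 47.8%, and the Abf1 motif in 9.88% against 19.0%. Matches of different motifs may overlap and were counted separately, and a match is a description of the letters only. RPL22B and RPL8A differed most between the PHO23 alleles. RPL26B and RPL41B were lower in the deletion than with the CLIB215 allele, as 46 of 81 members were. RPL41A, RPL39 and RPL27A were further down than RPL41B in the latter comparison and had no Rap1 core match. Windows of RPL22B, RPL8A, RPL26B and RPL41B are shown as examples from the 39 members with the Rap1 core. The core is in capitals (either strand), on the strand of the gene.
RPL22B: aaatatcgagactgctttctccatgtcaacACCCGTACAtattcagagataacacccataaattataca
RPL8A: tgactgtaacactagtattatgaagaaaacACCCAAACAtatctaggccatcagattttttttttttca
RPL26B: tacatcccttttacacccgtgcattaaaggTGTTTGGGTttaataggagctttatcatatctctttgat
RPL41B: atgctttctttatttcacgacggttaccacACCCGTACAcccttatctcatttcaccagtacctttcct
These lie in build R64 at VI:65139-65207 (minus strand), VIII:36226-36294 (minus strand), VII:555498-555566 (plus strand) and IV:222107-222175 (minus strand). Members with the Rap1 core had a median of 0.30 for the PHO23 deletion minus T73 and −0.42 for T73 minus CLIB215. Members without it had 0.35 and −0.37, close to the former.

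The 57 genes of the small subunit stood in the columns much as those of the large subunit did. Their median was 0.31 for the PHO23 deletion minus T73, with 56 of 57 above 0 (46.9% of all ORFs), and −0.44 for T73 minus CLIB215, with 54 of 57 below 0 (45.4% of all ORFs). RPS17B (−1.07), RPS8B (−0.72) and RPS28B (0.93) marked the range of the latter. The large subunit of the mitochondrial ribosome is built by a separate set of proteins. Its 44 genes had medians of −0.24 and 0.07 in these comparisons, beside −0.04 and 0.06 over all ORFs. Of these 44 genes 27 were lower in the deletion, beside 53.1% of all ORFs. MRP20 was lower by 1.16 and MRPL38 by 1.15 (differences −1.16 and −1.15).

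Genes listed together as escorts and importers of ribosomal proteins had larger median differences than the ribosomal protein genes. All 15 with values were higher in the PHO23 deletion than with the T73 allele (median 0.58, 8 past 0.5 unit, against 15.7% of all ORFs higher by that mark). All were lower with the T73 than with the CLIB215 allele (median −0.71, 10 past the mark, against 15.6% of all ORFs). TSR4 and YAR1 among the 15 serve small-subunit proteins. ARX1, ALB1, REI1 and JJJ1 act in late maturation and export of the large subunit, so the list is mixed. Chaperones were set beside the gene of their client, a choice made after the values were seen, with the deletion minus T73 difference first and T73 minus CLIB215 second. RRB1, the chaperone of Rpl3, had 1.48 and −1.57, beside 0.19 and −0.26 for RPL3. SQT1, the chaperone of Rpl10, had 0.58 and −0.46, beside 0.74 and −0.76 for RPL10. SYO1, which escorts Rpl5 and Rpl11, had 0.24 and −0.21, beside 0.25 and −0.25 for RPL5, 0.35 and −0.30 for RPL11A and 0.44 and −0.46 for RPL11B. All of these genes shared the signs, and their sizes were far apart for RRB1 and RPL3. The signs were those of all 15 listed genes and of 78 and 79 of the 81 members. Shared signs are therefore not particular to a chaperone and its client.

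BCP1, the chaperone of Rpl23, had 0.68 and −0.73, beside 0.20 and −0.40 for RPL23A and 0.43 and −0.64 for RPL23B. ACL4, the chaperone of Rpl4, had 0.19 and −0.48, beside 0.21 and −0.19 for RPL4A and 0.69 and −0.58 for RPL4B. PUF6, which acts with Loc1 on Rpl43, had 1.69 and −1.25, beside 0.27 and −0.12 for RPL43A and 0.38 and −0.45 for RPL43B. The signs were those of nearly all genes of both lists, and the sizes differed, most of all for PUF6.

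The largest differences of all lists were in the late maturation and export of the large subunit, with 32 genes. Their median was 0.88 for the PHO23 deletion minus T73 (30 above 0, 22 higher by 0.5 unit, against 46.9% and 15.7% of all ORFs). It was −0.81 for T73 minus CLIB215 (28 below 0, 23 lower by the mark, against 45.4% and 15.6%). RRS1 had 1.19 in the deletion, −0.71 for the T73 allele and 1.32 with that of CLIB215, and RIX1 had 0.90, −1.24 and 0.75. Between the natural RXT3 alleles, where the ribosomal protein genes had a median of −0.06, these maturation genes had 0.48, with 25 of 32 above 0 (51.6% of all ORFs). Of the 32, 15 passed 0.5 unit, all of them higher for T73, against 11.3% of all ORFs.

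Elongation factors and their modifiers (14 complete of 15) had medians of 0.15 for the PHO23 deletion minus T73 and −0.01 for T73 minus CLIB215. Within them the diphthamide genes DPH1 (0.87 and −1.24), DPH2 (1.70 and −1.48) and DPH5 (0.99 and −0.89), which modify elongation factor eEF2, differed most along with HEF3 (1.57 and −1.36). Chaperones and targeting factors at the exit tunnel (17 complete of 18) had medians of −0.06 and 0.01. Modifiers of large-subunit proteins (10 genes) had 0.22 and −0.34, with the arginine methyltransferase gene RMT2 at 1.31 and −1.56.

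Of 26 regulators of ribosomal protein genes 23 were complete, and IFH1, CRF1 and TOD6 lacked a value in 1 column each. The median was −0.18 for the PHO23 deletion minus T73, with 15 of 23 lower (53.1% of all ORFs), and 0.29 for T73 minus CLIB215, with 18 of 23 higher (54.6% of all ORFs). RAP1 itself had −0.72 in the PHO23 deletion, 0.19 for the T73 allele and −0.19 with that of CLIB215. TOR1, a kinase that promotes transcription of these genes, had 0.68, −0.79 and −0.69. SFP1, an activator of ribosomal protein genes, had −0.41 where RXT3 is labelled deleted and 0.82 with the RXT3 allele of T73. IFH1, whose protein activates these genes with Fhl1, had 0.28, −0.24 and 0.26 in the PHO23 columns, the order of the ribosomal protein genes. The TOR complex gene KOG1 had 0.22, −0.15 and 0.06. The PHO23 allele of T73 was the lowest of the 3 PHO23 columns for 5 of 24 regulators with values there, against 76 of 81 large-subunit genes and 33.2% of all ORFs. IFH1 and KOG1 were named after their values were seen.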

How the data were processed

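Per the labels' protocols, fragmented RNA was enriched for poly(A) with poly-dT beads, and cDNA was primed with barcodes that hold a unique molecular identifier. The submitters' processing notes name R64 as the build and Bowtie as a tool, with no version. The authors deposited 1 table of log values, read here as log2, with 1 pooled column per group. Depth is unknown, and the sources used here give neither the log base nor the counting, normalization and centring. Of its 6701 rows, 51 have no ORF name. No spread between replicates can be given.

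Gene names, introns and sequences come from the RefSeq annotation of R64, which matched 5962 of the 6650 named ORFs. Differences between columns were taken over 4956 complete ORFs with Python 3.11.15, pandas 2.3.3, NumPy 2.4.6 and Biopython 1.88, and figures were drawn with matplotlib 3.10.9. Scripts were tested on simulated data. The members, gene lists and tests were chosen with earlier results of these data known. Named genes are the 5 lowest and 5 highest members of each of the 9 comparisons, the 8 widest and 4 narrowest paralog pairs, the P protein and single-copy genes, up to 4 genes of each other list with the largest difference, and RXT3 and PHO23. Others are named for a role or feature, after their values were seen. Alternatives tried were naming by the genotype field, shifting columns to median 0, scaling them to equal SD, members with both values, single-copy members and a mark of 1 unit.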

Additional observations from a re-analysis of the deposited data

Results flagged for a closer look

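By the sample titles RPL7B differed between the natural alleles in opposite directions at the 2 loci. T73 minus CLIB215 was 0.69 at RXT3 and −0.59 at PHO23, where the median over the 81 members was −0.06 and −0.40. Each locus has 1 pooled column per allele, so the difference between the loci was not tested.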

How the results depend on the processing

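No paired analysis was possible because the table holds 1 pooled column per group and no column carries a replicate number; for the same reason no replicate was left out.

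Naming the columns by the genotype field changed most. The medians became 0.0043 (PHO23 deletion minus T73), −0.40 (PHO23 deletion minus CLIB215), −0.30 (RXT3 deletion minus CLIB215), −0.28 (RXT3 T73 minus CLIB215), 0.055 (RXT3 minus PHO23 deletion, a reversal) and −0.039 (RXT3 minus PHO23, CLIB215). Members past 0.5 unit became 1, 23, 15, 10, 1 and 2 in these comparisons, 2 for the RXT3 deletion minus T73 and 0 for the T73 alleles. Reversed genes were RPL9A (−0.089, PHO23 deletion minus T73), RPL7B (−0.43) and RPL15B (−0.31) for the RXT3 deletion minus CLIB215, and RPL7B for RXT3 T73 minus CLIB215 (−1.06) and for the CLIB215 alleles (0.060). The T73 minus CLIB215 comparison at PHO23 uses columns on which both labels agree.

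With columns shifted to median 0, which moved the median of all ORFs by at most 0.063 unit, members past 0.5 unit were 36 for T73 minus CLIB215 at PHO23 (18.6% of all ORFs were then lower by that mark) and 24 for the CLIB215 alleles. With equal SD they were 0 for the PHO23 deletion minus CLIB215, 2 for RXT3 T73 minus CLIB215 and 2 for the T73 alleles. At 1 unit they were 2 for T73 minus CLIB215 at PHO23 and 0 in the other 8 comparisons. Medians over the 81 members moved by less than 0.1 unit under both scalings and with single-copy members alone, and the median paralog distance did so under all 3 column settings. The cause of the changes was not tested. Low depth could not be weighed, since the table gives none.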
